A study of Mus musculus with 12 samples.

Results

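The genes described here make prostanoids, break them down or receive their signal in mouse tumours. They are the cyclooxygenases Ptgs1 and Ptgs2, the terminal synthases Ptges, Ptgis and Tbxas1, the inactivating enzyme Hpgd, and the prostaglandin E2 receptors Ptger2 and Ptger4. Every probe set annotated to 1 of these symbols alone was taken, which gave 12 of the 45101 probe sets on the array for 7 of the 8 genes. Ptgs1 was not analysed here, since no probe set is paired with it alone in the annotation used. The genes were chosen by their values on these same arrays, so their levels and differences are given as a description, with standard errors and without a test.

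The arrays measured RNA of tumours grown from MC38, a mouse colon carcinoma line, after injection into the cecum of C57BL/6 mice. All injected cells, in every group, carried a doxycycline-inducible short hairpin against Tdo2, an enzyme that opens the ring of tryptophan. The 4 groups of 3 arrays were APC-WT cells without doxycycline (Dox), APC-WT cells with Dox in the drinking water, APC-KO cells without Dox and APC-KO cells with Dox, where APC is the tumour suppressor that holds back Wnt signalling. The labels do not tell whether the 3 arrays of a group came from separate animals. The p-values thus rest on the spread among samples alone, and part or all of it may be technical. Nor do the labels say whether the APC-KO line is 1 clone or which promoter drives the hairpin. No tumours without the hairpin were analysed here, so effects of Dox itself and of the hairpin cannot be told apart. Tumour and host RNA were measured together, so fewer cells of a type and less RNA per cell cannot be told apart.

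Array medians lay between 5.53 and 5.58 on the deposited log2 scale, and arrays of 1 group correlated at 0.995 to 0.998 over all probe sets. A level of 5.55, the median over all probe sets that are no controls, served as a filter and is not a measured background. All 3 probe sets of Tdo2 averaged 2.59, 3.12 and 3.85, all under the filter, so the knockdown could not be checked. Of the Apc probe sets, 1435543_at was lower in APC-KO by 0.84 ± 0.09 (SE) without Dox and by 0.94 ± 0.09 with Dox, while 1420956_at was lower by 0.10 and 0.24 ± 0.07. A further Apc probe set, 1450056_at, was lower by 0.41 and 0.49 ± 0.11, and 1420957_at averaged 3.13, under the filter. Of 13 markers of normal colon and cecum epithelium, 10 lay under the filter, Vil1, Krt20, Car1, Muc2, Cdx1 and Cdx2 among them. Of 4 keratins looked for as carcinoma markers, Krt18, Krt19 and Krt7 lay under it too. The other one, Krt8, read 10.12 to 11.65 in APC-WT without Dox, 9.35 to 9.59 in APC-WT with Dox, 9.13 to 10.09 in APC-KO without Dox and 7.20 to 9.02 in APC-KO with Dox. Between genotypes, Krt8 was lower in APC-KO without Dox (log2 difference -1.22, limma adjusted p = 0.0447), and its difference with Dox was -1.21 (0.0555). Its Dox differences were -1.35 in APC-WT (0.162) and -1.34 in APC-KO (0.188). In each of these comparisons the groups did not overlap. Whether Krt8 marks the injected cells was not tested, nor was the part of its shift in the results that follow.

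As background, phospholipases free arachidonic acid from membranes, and the 2 cyclooxygenases turn it into the unstable prostaglandin H2. Ptgs1 is made at a steady level in many tissues, whereas Ptgs2 (COX-2) is induced by cytokines, growth factors and low oxygen and is the form known for its rise in colorectal tumours. Terminal synthases then set the product: Ptges makes prostaglandin E2, Ptgis makes prostacyclin and Tbxas1 makes thromboxane A2. Prostaglandin E2 acts through receptors of which EP2 (Ptger2) and EP4 (Ptger4) raise cyclic AMP, and Hpgd oxidises prostaglandins to inactive products, an activity known in normal colon epithelium.

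Promoter sequence from RefSeq (build GRCm38.p6) was found for 7 of the 8 genes, and for Ptgis none was used. The stretches of Ptgs2 and Ptges are shown because Ptgs2 is the inducible enzyme that opens the pathway and Ptges is the terminal synthase known to work beside it. Each of the first 2 lines gives the 250 bases before the annotated start. The Ptgs2 stretch lies at chr1:150099781-150100030 on the plus strand, and the Ptges stretch at chr2:30903298-30903547 on the minus strand. The third line gives 19 bases of Ptgs2, chr1:150100039-150100057, bases 9 to 27 after the annotated start. All distances rest on that annotation, and whether transcription starts there in these tumours was not measured. Capitals mark the letters of the motifs searched.
Ptgs2 before start: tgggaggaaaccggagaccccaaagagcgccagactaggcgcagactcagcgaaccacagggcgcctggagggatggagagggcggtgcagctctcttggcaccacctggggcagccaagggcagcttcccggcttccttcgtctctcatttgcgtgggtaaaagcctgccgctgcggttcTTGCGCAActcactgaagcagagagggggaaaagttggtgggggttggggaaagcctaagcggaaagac
Ptges before start: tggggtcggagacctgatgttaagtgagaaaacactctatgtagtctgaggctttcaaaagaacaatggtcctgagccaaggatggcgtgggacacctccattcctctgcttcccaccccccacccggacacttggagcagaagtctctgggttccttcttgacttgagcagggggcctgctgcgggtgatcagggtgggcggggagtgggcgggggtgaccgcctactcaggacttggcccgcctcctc
Ptgs2 after start: cactaCGTCACGTGgagtc

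The motifs searched, on both strands and over 300 bases from 250 before to 50 after the start, were TGACG (a cyclic AMP response half-site), CACGTG (an E-box), TTGCGCAA (C/EBP), ATCAAAG (TCF/LEF), TGANTCA (AP-1), ACGTG (the core bound by hypoxia-inducible factor), the NF-kB motif and TATAAA. The Ptgs2 window held TTGCGCAA at 69 to 62 bases before the start, letters found in 0.183% of 32851 mouse promoter windows of that length. Its 19-base stretch held CGTCA, the reverse complement of TGACG, overlapping CACGTG by 2 bases. ACGTG and its reverse complement lie inside that E-box, so these matches are not separate. TGACG occurred in 20.8% of the windows, CACGTG in 7.15% and ACGTG in 19.6%. The Ptges window held none of the 8 motifs, which says only that these letters are not in this window. The Tbxas1 window held TGATTCA, a match to TGANTCA, 61 to 55 bases before the start, and TATAAA nearer to it, where 7.81% of windows match the first pattern and 13.6% the second. The arrays do not measure binding, so a match is a description of the letters alone.

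Ptgs2 was highest in APC-KO tumours without Dox, by both of its probe sets, and the other 3 groups lay close together. On 1417262_at, its brighter probe set, the 3 APC-KO arrays without Dox read 9.65, 9.11 and 8.56 (mean 9.11 ± 0.55, SD, n = 3). With Dox the APC-KO arrays read 8.30, 8.44 and 8.35 (8.36 ± 0.07). All 3 APC-KO arrays without Dox lay above all 3 with Dox, and they were far more spread out. The APC-WT arrays read 8.02, 8.08 and 8.40 without Dox (8.16 ± 0.20) and 8.20, 8.02 and 8.22 with Dox (8.15 ± 0.11), so these groups overlapped.

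In the fit over all 12 arrays, Ptgs2 on 1417262_at was 0.94 ± 0.18 (log2, SE) higher in APC-KO than in APC-WT without Dox and 0.22 ± 0.18 higher with Dox. Neither pair of groups overlapped. Dox went with a difference of -0.74 ± 0.18 in APC-KO and -0.02 ± 0.18 in APC-WT, and the change between the genotypes was -0.72 ± 0.26. These SE rest on 1 spread shared by all 4 groups, although the group SDs ran from 0.07 to 0.55. They may be too small for comparisons that use APC-KO without Dox and too large for the others. The Dox difference in APC-KO and the genotype difference without Dox share the APC-KO arrays without Dox, so a single high array enters both. Without replicate 1 of that group, the highest, the Dox difference in APC-KO was -0.47, the genotype difference 0.67 and the change between the genotypes -0.45. In order of level the groups ran from APC-KO without Dox through APC-KO with Dox to both APC-WT groups, and the APC-WT groups did not differ beyond their spread.

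The dimmer Ptgs2 probe set, 1417263_at, had larger differences in the same places. It read 8.82, 8.55 and 7.57 in APC-KO without Dox (8.31 ± 0.66) and 7.09, 6.38 and 6.66 with Dox (6.71 ± 0.36). In APC-WT it read 6.15, 6.05 and 7.13 without Dox (6.44 ± 0.60) and 6.81, 6.71 and 7.21 with Dox (6.91 ± 0.26). APC-KO without Dox again stood above the other groups without overlap, while APC-KO and APC-WT with Dox overlapped. The difference between genotypes was 1.87 ± 0.29 without Dox and -0.20 ± 0.29 with Dox, so the probe sets differ in sign for the latter. Dox went with -1.61 ± 0.29 in APC-KO and 0.47 ± 0.29 in APC-WT. Both probe sets correlated at r = 0.90 (Spearman 0.72) over the 12 arrays and at 0.76 after group means were taken away, values that share the same libraries.

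**Figure D1:**
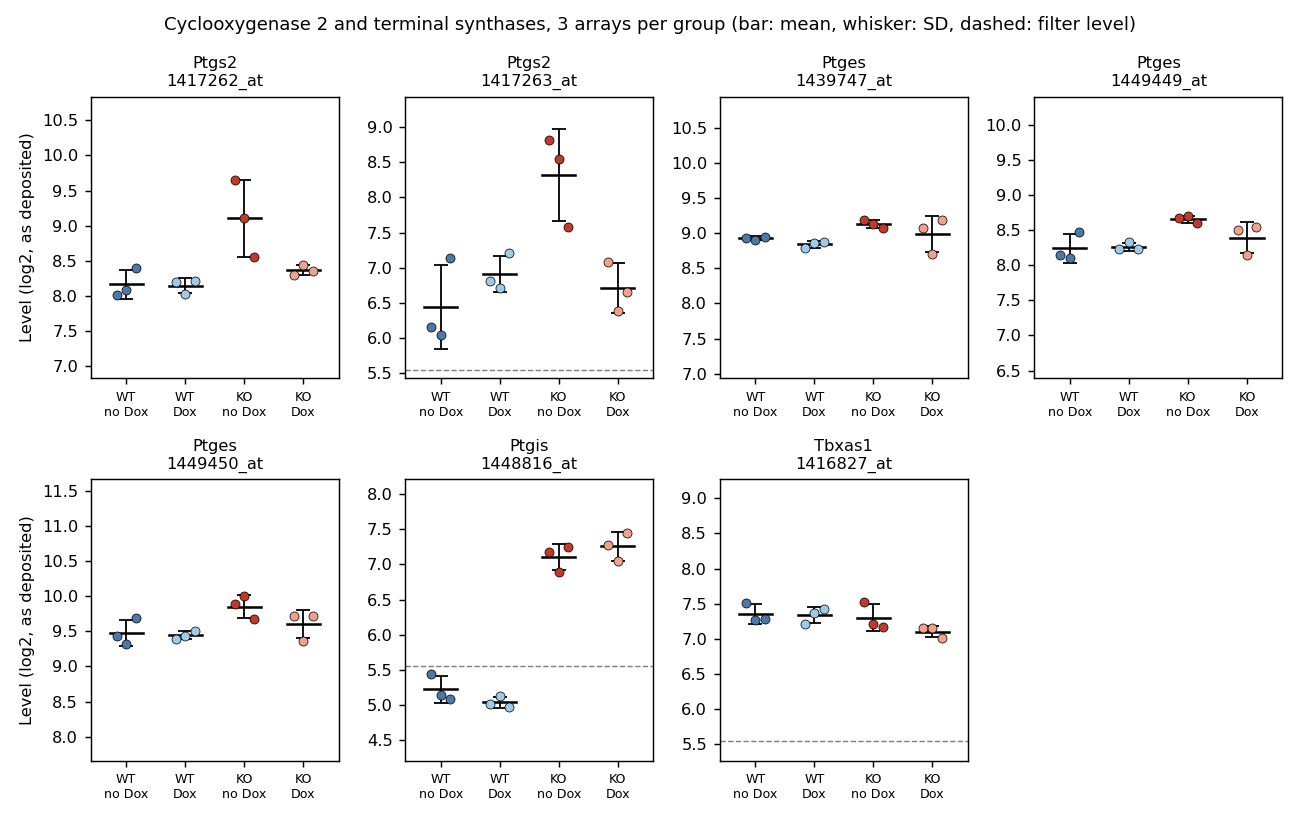
Log2 level as deposited (vertical axis, 4 log2 units in every panel) of the 7 probe sets of Ptgs2, Ptges, Ptgis and Tbxas1 in the 4 groups. Points are arrays, the bar is the mean of 3 and the whisker the SD, and the dashed line is the filter level of 5.55. Ptgs2 is highest in APC-KO without Dox, Ptgis lies under the filter on all 6 APC-WT arrays and at 6.90 or more on all 6 APC-KO arrays, and Tbxas1 is lowest in APC-KO with Dox.

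Values of other kinds were also high in APC-KO without Dox, the group where Ptgs2 was highest. The neutrophil markers, 7 of 9 with a probe set and 4 of those at or above the filter, had summed log2 levels of 10.39 to 11.43 in APC-KO without Dox and 9.84 to 10.03 in APC-KO with Dox, against 9.32 to 9.84 and 9.67 to 10.27 in APC-WT without and with Dox. Cxcr2, Ngp and Camp, which help to define neutrophils, lay under the filter. S100a8, a calcium-binding protein of neutrophils, read 9.35, 9.17 and 7.35 in APC-KO without Dox and 4.50, 5.32 and 3.86 with Dox, so its lowest array in the first group was also the lowest for Ptgs2. S100a8 and S100a9 fell with Dox in APC-KO (limma adjusted p = 0.011 and 0.013), at least 8.41-fold and 11.2-fold when the filter level is taken for the Dox arrays, which all lie under it. The other tested markers, Csf3r and Mmp9, had Dox differences of -0.17 and -0.22 in APC-KO (0.465 and 0.635). Of all 11070 tested genes, 0.506% fell with Dox in APC-KO. Between genotypes all 4 markers rose in APC-KO without Dox, where 13.8% of all genes rose. With Dox S100a8 and S100a9 fell in APC-KO, where 7.99% of all genes fell. Csf3r and Mmp9 had differences of 0.18 (0.2) and 0.50 (0.059) there. The 18S ribosomal control probe set for the middle of the molecule read 9.80 to 10.16 in APC-KO without Dox and 9.34 to 9.61 on the other 9 arrays. That for the 5′ end overlapped, with 9.51 to 9.86 in APC-KO without Dox and 9.45 to 9.73 in APC-WT without Dox. The part of neutrophil RNA or of ribosomal RNA in the Ptgs2 difference was not tested.

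**Figure D2:**
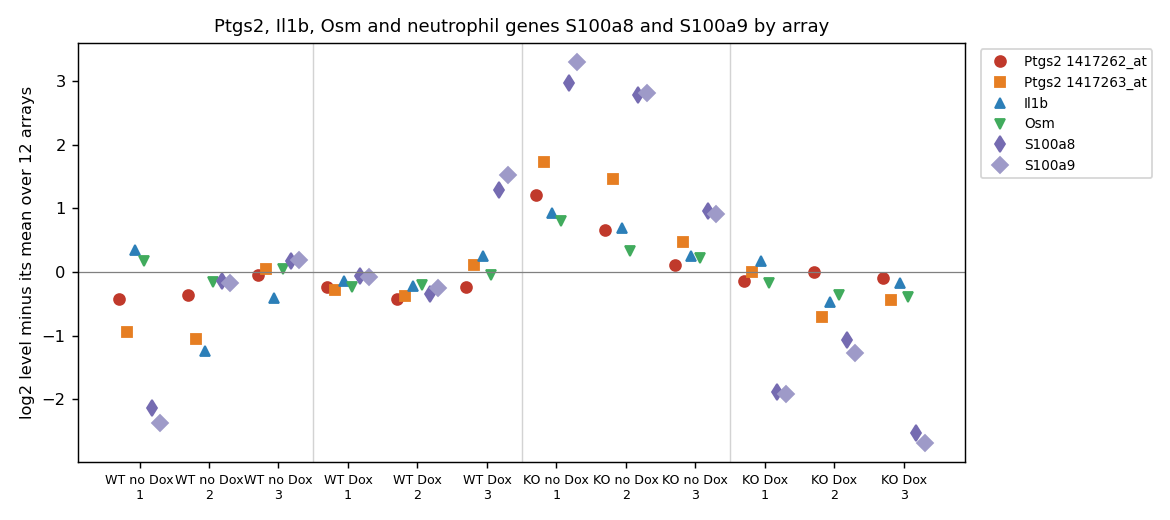
Log2 level of both Ptgs2 probe sets, Il1b, Osm, S100a8 and S100a9 on each of the 12 arrays, as the distance from the same probe set's mean over the 12 arrays (vertical axis), with vertical lines between the 4 groups. All 6 series are above their mean on the 3 APC-KO arrays without Dox, and replicate 3 of that group lies below the other 2 in each; replicate numbers have no order.

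Ptges, the inducible prostaglandin E synthase that works beside Ptgs2, was well above the filter on all 3 of its probe sets, and its differences were small. On the brightest, 1449450_at, the arrays read 9.43, 9.32 and 9.68 in APC-WT without Dox, 9.39, 9.44 and 9.51 in APC-WT with Dox, 9.88, 10.0 and 9.67 in APC-KO without Dox, and 9.72, 9.37 and 9.72 in APC-KO with Dox. The groups overlapped in all 4 comparisons. The fitted difference between genotypes was 0.37 ± 0.11 without Dox and 0.16 ± 0.11 with Dox, and Dox went with -0.25 ± 0.11 in APC-KO and -0.03 ± 0.11 in APC-WT. Without replicate 2 of APC-KO with Dox, the Dox difference in APC-KO was -0.13 and the genotype difference with Dox 0.28, and without replicate 3 of that group the latter was 0.096.

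The other Ptges probe sets ranked the groups alike, with APC-KO without Dox first and APC-KO with Dox second. On 1449449_at APC-KO without Dox read 8.67, 8.69 and 8.59, all above APC-KO with Dox (8.50, 8.14 and 8.54) and above APC-WT without Dox (8.14, 8.10 and 8.47). On 1439747_at APC-KO without Dox read 9.18, 9.13 and 9.08 against 8.93, 8.90 and 8.95 in APC-WT without Dox, a difference of 0.20 ± 0.09. APC-WT with Dox read 8.79, 8.86 and 8.87 there, lower than without Dox by 0.09 ± 0.09. Replicate 2 of APC-KO with Dox was the lowest of its group on all 3 probe sets, and on 1439747_at, at 8.70, the lowest of all 12 arrays. The 3 probe sets correlated with each other at r = 0.85 to 0.95.

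Ptgis, the prostacyclin synthase of vessel walls and fibroblasts, separated the genotypes completely. Its 1 probe set, 1448816_at, read 5.44, 5.15 and 5.08 in APC-WT without Dox (5.22 ± 0.19) and 5.01, 5.13 and 4.97 with Dox (5.04 ± 0.08), all under the filter. In APC-KO it read 7.17, 6.90 and 7.24 without Dox (7.10 ± 0.18) and 7.28, 7.04 and 7.44 with Dox (7.26 ± 0.20). Since all APC-WT arrays lie under the filter level, the APC-KO level was at least 2.93-fold higher without Dox and at least 3.26-fold higher with Dox, taking the filter level for APC-WT. The fitted differences were 1.88 ± 0.12 and 2.22 ± 0.12. Within a genotype, Dox and no Dox overlapped in both. Ptgis passed the filter through its APC-KO arrays, so it had to differ between the genotypes.

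Markers of cell types known to make prostacyclin were measured on the same arrays. All 9 fibroblast markers lay above the filter, with summed levels of 14.87 to 14.99 and 14.80 to 14.86 in APC-WT without and with Dox, and 14.92 to 15.11 and 14.96 to 15.03 in APC-KO. Of these 9, 2 rose in APC-KO without Dox and 3 with Dox, where 13.8% and 11.9% of all 11070 tested genes rose. None of them fell, where 11.1% and 7.99% of all genes did. Of 8 endothelial markers, 7 were above the filter, with sums of 9.81 to 10.20 and 9.93 to 10.07 in APC-WT and of 10.15 to 10.25 and 10.18 to 10.26 in APC-KO, and Tek lay under it. None of the 7 passed between genotypes without Dox, and 3 rose and 1 fell with Dox, beside the same shares of all genes. Smooth muscle and pericyte markers, 4 of 7 above the filter, summed to 9.57 to 10.14 and 9.84 to 9.95 in APC-WT and to 10.13 to 10.33 and 10.21 to 10.40 in APC-KO, and Myh11, Cnn1 and Actg2 lay under it. Of these 4, 2 rose in APC-KO in each comparison, again beside 13.8% and 11.9% of all genes. The part of these cell types in the Ptgis difference was not tested.

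Tbxas1, the thromboxane synthase of platelets and macrophages, was lowest in APC-KO with Dox, by a small margin. On 1416827_at the APC-WT arrays read 7.52, 7.27 and 7.28 without Dox and 7.21, 7.37 and 7.43 with Dox. The APC-KO arrays read 7.52, 7.21 and 7.17 without Dox (7.30 ± 0.19) and 7.15, 7.15 and 7.01 with Dox (7.10 ± 0.08). APC-KO with Dox overlapped neither APC-KO without Dox nor APC-WT with Dox. The fitted differences were -0.20 ± 0.10 and -0.23 ± 0.10, while the APC-WT groups differed by -0.02 ± 0.10. Without replicate 1 of APC-KO without Dox, at 7.52, the Dox difference in APC-KO was -0.087. All 9 macrophage markers were above the filter, with sums of 14.40 to 14.55 over the 12 arrays. Of these, Csf1r rose in APC-KO without Dox (0.28, limma adjusted p = 0.00491) and Msr1 fell with Dox (-0.49, 0.00553). In these comparisons 13.8% of all genes rose without Dox and 7.99% fell with Dox. Platelet markers, 3 of 5 above the filter, summed to 9.89 to 9.95 in APC-KO with Dox and to 9.93 to 10.78 in the other groups, and Pf4 differed between genotypes with Dox by -0.60 without overlap (0.0597). The part of these cells in the Tbxas1 difference was not tested.

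Hpgd and Ptger2 lay at or under the filter level for most arrays, so their values are given without a fitted difference. On the Hpgd probe set 1419905_s_at, all 3 APC-WT arrays without Dox were under the filter (4.82, 4.79 and 4.64). With Dox they read 5.57, 5.33 and 4.88. APC-KO arrays read 5.64, 6.05 and 5.21 without Dox and 5.43, 6.37 and 5.95 with Dox, with 2 of 3 above the filter in each group. APC-WT without Dox lay below APC-WT with Dox and below APC-KO without Dox with no overlap. The other probe set, 1419906_at, read 3.77 to 4.27 on all 12 arrays, under the filter throughout, and correlated with the first at r = 0.65 and at 0.17 after group means were taken away.

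Ptger2 on 1449310_at read 5.57, 5.54 and 5.59 in APC-WT without Dox and 5.25, 5.24 and 5.68 with Dox. In APC-KO it read 5.10, 5.20 and 5.21 without Dox and 5.30, 4.57 and 4.84 with Dox. All 6 APC-KO arrays were under the filter, against 3 of the 6 APC-WT arrays. Without Dox the APC-KO arrays lay below the APC-WT arrays with no overlap, and with Dox they overlapped.

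Ptger4, the receptor that was clearly above the filter, had overlapping groups in all 4 comparisons. On 1424208_at the arrays read 8.34, 8.00 and 7.97 in APC-WT without Dox (8.11 ± 0.20), 8.16, 8.34 and 8.41 with Dox (8.30 ± 0.13), 8.32, 8.06 and 8.09 in APC-KO without Dox (8.16 ± 0.14) and 8.14, 8.34 and 8.26 with Dox (8.25 ± 0.10). The fitted differences ran from -0.06 to 0.20 with an SE of 0.10, the largest being that for Dox in APC-WT. That difference was 0.13 without replicate 3 and 0.32 without replicate 1 of APC-WT without Dox. Its other probe set, 1421073_a_at, read 4.20 to 5.19, under the filter on all 12 arrays. Both correlated at r = 0.83.

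**Figure D3:**
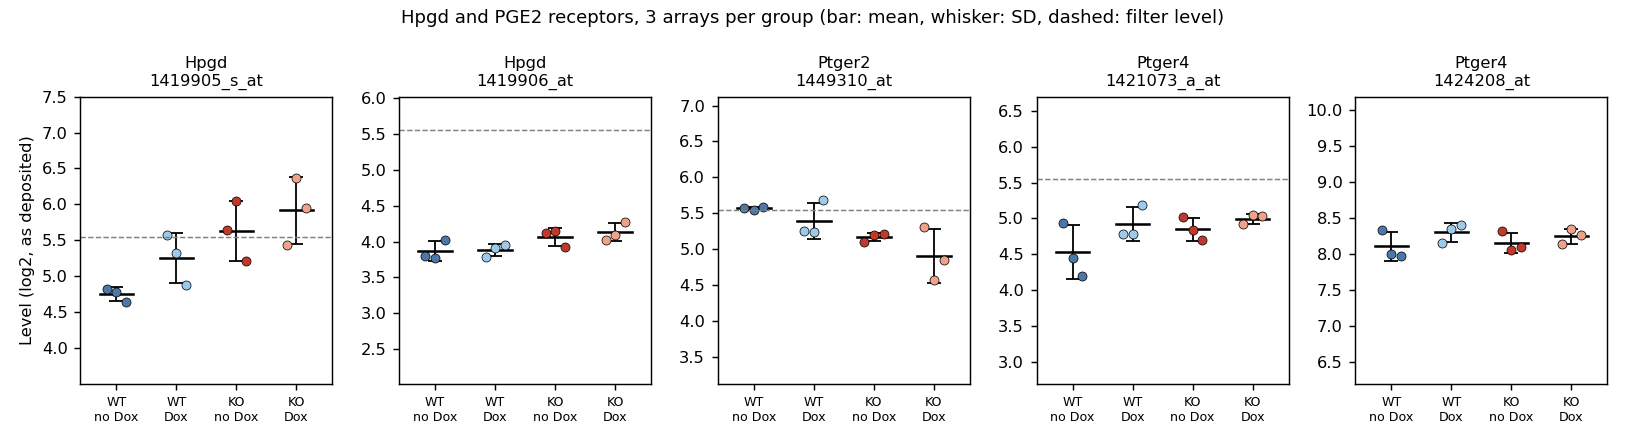
Log2 level as deposited (vertical axis, 4 log2 units in every panel) of the 5 probe sets of Hpgd, Ptger2 and Ptger4 in the 4 groups. Points are arrays, the bar is the mean of 3 and the whisker the SD, and the dashed line is the filter level of 5.55. Ptger4 on 1424208_at stays between 7.97 and 8.41, while the Ptger2 probe set, both Hpgd probe sets and Ptger4 1421073_a_at lie near or under the filter.

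Of the 7 genes with a probe set, 5 had their brightest at or above the filter: Ptgs2, Ptges, Ptgis, Tbxas1 and Ptger4. On that probe set, 0 of 5 had groups without overlap for Dox in APC-WT, beside 21.3% of all 11070 genes at that level. For Dox in APC-KO it was 2 of 5, Ptgs2 and Tbxas1, both lower, beside 17.7%. For genotype without Dox it was Ptgs2 and Ptgis, both higher, beside 37.2%, and with Dox it was these and Tbxas1, which was lower, beside 41.4%. The median difference of the 5 was -0.02 and -0.20 for Dox in APC-WT and APC-KO, and 0.37 and 0.16 for genotype without and with Dox, where the median over all genes lay between -0.01 and 0.01. Nothing is read from these counts, as the values chose the genes.

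**Figure D4:**
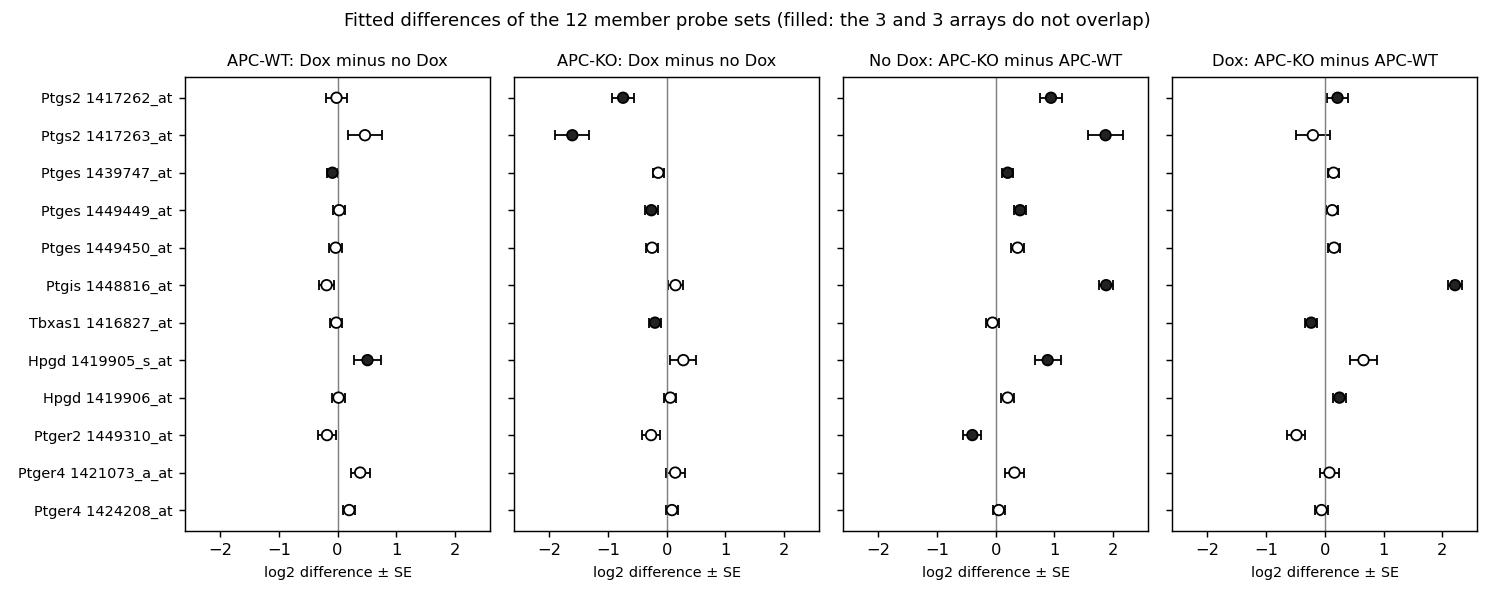
Fitted log2 difference with its SE (horizontal axis) for each of the 12 probe sets in 4 comparisons of 3 against 3 arrays. Filled points mark groups that do not overlap. Ptgis stands at 1.88 and 2.22 between genotypes, and the Ptgs2 probe sets at 0.94 and 1.87 without Dox and at 0.22 and -0.20 with Dox. Points of Hpgd, Ptger2, Ptgis and Ptger4 1421073_a_at rest in part or in whole on arrays under the filter.

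The named genes most like each of the 5 over the 12 arrays were found by Pearson's r, as a description. For Ptgs2 they were Gtf2f2 (r = 0.95, and 0.89 after group means were taken away), Fam162a (0.92 and 0.72) and Mxi1 (0.92 and 0.77). For Ptges they were Cyrib (0.93 and 0.90), Jun (0.93 and 0.83) and Gnb5 (0.92 and 0.80). For Ptgis they were Cstf2, Atg4a and Pdha1, at 0.99 each and at 0.54 to 0.59 after group means were taken away. The RefSeq table places these last 3 on chromosome X, and Ptgis itself elsewhere. Tbxas1 was closest to Dram1, Gdi2 and Arpc2 (0.89 to 0.93), and Ptger4 to Mmgt1, Lin7c and Megf9 (0.81 to 0.86). These values all share the same 12 libraries.

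Around these genes, 76 genes in 7 lists were looked at, from arachidonate release to targets of cyclic AMP. Of these, 71 had a probe set and 52 lay at or above the filter and were tested with limma, with p-values adjusted over all 11070 genes. In APC-KO against APC-WT without Dox, 10 of the 52 rose and 6 fell, where 13.8% of all genes rose and 11.1% fell. With Dox 7 rose and 3 fell, where 11.9% rose and 7.99% fell. The median difference of the 52 was 0.06 without Dox and -0.04 with Dox, beside 0.01 over all genes in each. Acsl4, Cbr1, Hpgds and Ppard rose in both, and Tgfa fell in both. Ptgir is in both counts too, but it entered the test through its APC-KO arrays alone, and without it 15 and 9 genes passed.

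Dox changed fewer of them. In APC-KO 0 of 52 rose and 2 fell, Osm and Dusp1, where 0.0361% of all genes rose and 0.506% fell, and 14 of the 52 had an unadjusted p under 0.05, as did 1446 of the 11070. In APC-WT limma called 0 of 52, where 0.0271% of all genes were called, with 13 of 52 and 1716 of 11070 at an unadjusted p under 0.05 and a smallest adjusted p of 0.105. A difference in the Dox effect between genotypes, the interaction, was called for 0 of 52 and for 0% of all genes, with 12 of 52 and 1312 of 11070 at an unadjusted p under 0.05. The Dox effects are therefore not shown to differ between genotypes for any of these genes.

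**Figure D5:**
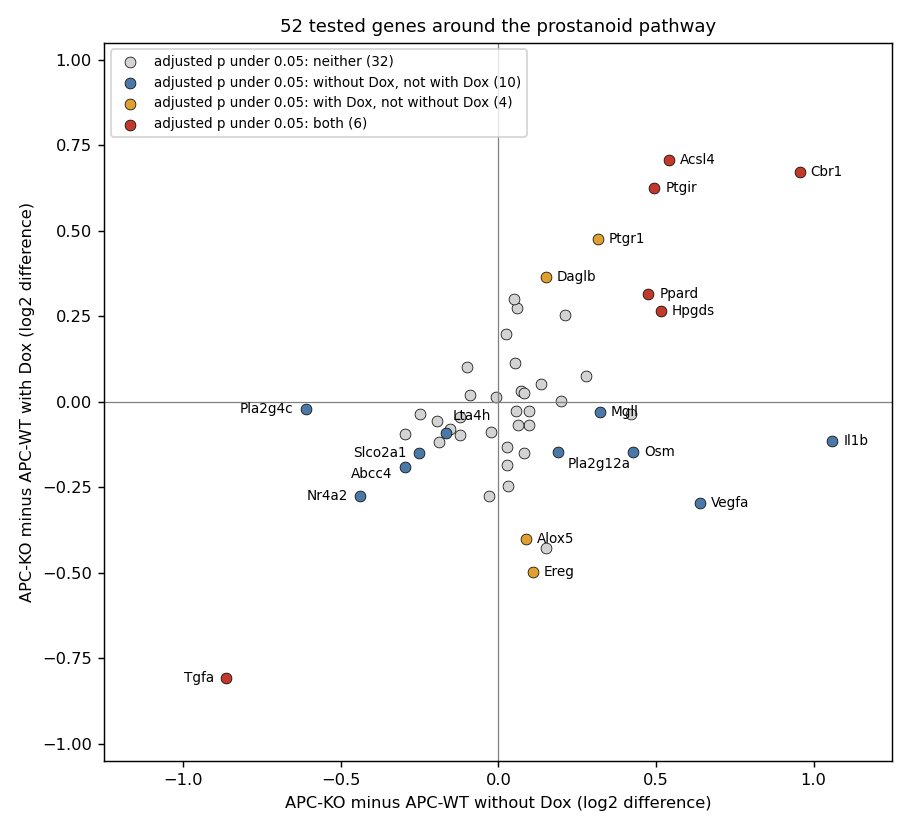
Log2 difference of APC-KO minus APC-WT without Dox (horizontal axis) and with Dox (vertical axis) for the 52 tested genes of the 7 lists, coloured by whether the limma adjusted p was under 0.05. The 6 genes that passed in both comparisons, Ptgir among them, carry the same sign in each, and Il1b, at 1.06 without Dox, lies near 0 with Dox.

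Arachidonate release and recycling had 12 tested genes of 18 named. Without Dox 3 rose in APC-KO, 1 fell and 8 did not pass, and with Dox 2 rose and 10 did not pass. Of all genes, 13.8% rose and 11.1% fell without Dox, and 11.9% rose and 7.99% fell with Dox. No count of a list is read as a result about that list. Acsl4, which reattaches free arachidonate to coenzyme A, read 9.29 to 9.76 in APC-WT without Dox and 10.0 to 10.1 in APC-KO, and rose by 0.54 ± 0.11 without Dox (adjusted p = 0.00346) and by 0.71 ± 0.11 with Dox (0.000687). Mgll, a lipase that frees arachidonate from 2-arachidonoylglycerol, rose by 0.32 ± 0.10 without Dox (0.0256), and Pla2g12a, a secreted phospholipase named after its values were seen, by 0.19 ± 0.07 (0.0486). Pla2g4c, a cytosolic phospholipase, fell by 0.61 ± 0.17 (0.0179), and by 0.39 when replicate 2 of APC-KO without Dox, at 5.42, was left out (adjusted p = 0.0654). Daglb, which makes 2-arachidonoylglycerol, was higher in APC-KO than in APC-WT among tumours with Dox, by 0.37 ± 0.12 (0.0409). Pla2g2d, Pla2g2e, Pla2g2f, Pla2g5 and Pla2g10, secreted phospholipases, lay under the filter.

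Only the Acsl4 calls in that list held when each array was left out in turn. Mgll was lost without replicate 1 or 3 of APC-KO or replicate 3 of APC-WT, all without Dox (adjusted p up to 0.105), Pla2g4c also without replicate 1 of APC-WT without Dox or with its probe sets averaged (up to 0.118), Pla2g12a without 9 of the 12 arrays (up to 0.154), and Daglb without 5, replicates 2 and 3 of APC-KO with Dox, replicates 1 and 3 of APC-WT with Dox and replicate 3 of APC-KO without Dox (up to 0.177).

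Of the other prostanoid synthases, 5 of 8 were tested, and 2 rose in APC-KO both without and with Dox, beside 13.8% and 11.9% of all genes. Cbr1, a carbonyl reductase that can turn prostaglandin E2 into F2 alpha, read 7.16 to 7.33 in APC-WT without Dox, 7.33 to 7.47 with Dox, 8.16 to 8.24 in APC-KO without Dox and 7.98 to 8.18 with Dox. It rose by 0.96 ± 0.07 without Dox (adjusted p = 1.5e-06) and by 0.67 ± 0.07 with Dox (2.53e-05), and no array of one genotype reached the other. Hpgds, the prostaglandin D2 synthase of blood-derived cells, rose by 0.52 ± 0.09 (0.001) without Dox. With Dox its difference was 0.26 ± 0.09 (0.0492), a call lost when any 1 of 8 arrays was left out, among them each of the 6 with Dox (adjusted p up to 0.172). Ptges2, a second prostaglandin E synthase, differed by 0.20 ± 0.09 without Dox (0.116), and Prxl2b, which makes prostaglandin F, by 0.08 ± 0.07 (0.468).

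All 7 genes of inactivation and transport were tested. Without Dox 0 rose and 2 fell in APC-KO, where 13.8% of all genes rose and 11.1% fell. With Dox 1 rose and 0 fell, where 11.9% rose and 7.99% fell. Abcc4, which exports prostaglandins from cells, fell by 0.30 ± 0.07 without Dox (adjusted p = 0.00861), with 8.78 to 9.02 in APC-WT and 8.57 to 8.69 in APC-KO. Slco2a1, the transporter that takes prostaglandins up for breakdown, fell by 0.25 ± 0.08 (0.0347), a call lost when any 1 of the 3 APC-KO arrays or replicate 1 or 2 of APC-WT, all without Dox, was left out (up to 0.112). Ptgr1, which reduces the products of Hpgd, was higher in APC-KO than in APC-WT among tumours with Dox, by 0.47 ± 0.12 (0.0125). That call was lost without replicate 3 of APC-WT with Dox (0.0647). Zadh2, an alternative symbol of the reductase Ptgr3, differed by -0.19 ± 0.07 without Dox (0.0654).

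Of 10 other receptors and partners, 4 lay at or above the filter. Ppard and Ptgir were called higher in APC-KO in both comparisons, beside 13.8% and 11.9% of all genes. Ptgir, the receptor of the prostacyclin that Ptgis makes, lay under the filter on all 6 APC-WT arrays (5.15 to 5.51). On the APC-KO arrays it read 5.547 to 6.05, and the lowest, replicate 2 without Dox, was just under the filter of 5.552. Like Ptgis, Ptgir passed the filter through its APC-KO arrays and so had to differ, and its calls are not read as a test. With the filter level taken for APC-WT, it was at least 1.16-fold higher in APC-KO without Dox and at least 1.31-fold higher with Dox. Ppard, a nuclear receptor for fatty acids, rose by 0.48 ± 0.09 without Dox (adjusted p = 0.00218) and by 0.31 ± 0.09 with Dox (0.0266), the latter lost without replicate 2 or 3 of APC-KO with Dox or replicate 1 or 3 of APC-WT with Dox (up to 0.118) and with its probe sets averaged (0.175), which also brought the differences to 0.25 and 0.15. Tbxa2r, the thromboxane receptor, and Ptgfrn, a partner of the prostaglandin F receptor, had differences of -0.13 to 0.03 between genotypes and adjusted p of 0.211 or more. Ptger1, Ptger3, Ptgfr, Ptgdr, Ptgdr2 and Pparg lay under the filter.

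In the leukotriene and lipoxygenase arm, 7 of 13 genes were tested. In each genotype comparison 1 fell, beside 11.1% of all genes without Dox and 7.99% with Dox. Lta4h, which makes leukotriene B4, fell by 0.17 ± 0.05 without Dox (adjusted p = 0.0269), and Alox5, the lipoxygenase that starts the arm, fell by 0.40 ± 0.13 with Dox (0.0465). Neither call held with each array left out in turn. Lta4h was lost without replicate 2 or 3 of either genotype without Dox (up to 0.102) and with its probe sets averaged (0.51), and Alox5 without 6 arrays, all 3 of APC-KO with Dox, replicates 1 and 2 of APC-WT with Dox and replicate 2 of APC-KO without Dox (up to 0.158). Alox5ap, the partner protein of Alox5, differed by 0.13 ± 0.07 and 0.05 ± 0.07 between genotypes, and Fpr2, a receptor for lipoxins, by 0.06 ± 0.15 and -0.03 ± 0.15, with no call.

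Cytokines and growth factors known to induce Ptgs2 gave 6 tested genes of 9. Between genotypes without Dox 2 rose and 1 fell, where 13.8% of all genes rose and 11.1% fell. With Dox 2 fell, where 7.99% of all genes did. Il1b, an inflammatory cytokine of myeloid cells, read 9.33, 9.10 and 8.66 in APC-KO without Dox, 8.58, 7.94 and 8.24 in APC-KO with Dox, 8.75, 7.16 and 8.00 in APC-WT without Dox and 8.27, 8.18 and 8.65 in APC-WT with Dox. Its groups overlapped between genotypes without Dox, at a difference of 1.06 ± 0.30 (adjusted p = 0.0209), and the Dox difference in APC-KO was -0.78 ± 0.30 (0.289). The Il1b call was lost without replicate 1 or 2 of APC-KO or replicate 2 of APC-WT, all without Dox (up to 0.081), and without the last of these the difference was 0.65.

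Osm, a cytokine of the interleukin 6 family, read 7.23, 6.76 and 6.65 in APC-KO without Dox and 6.26, 6.08 and 6.03 with Dox. It fell with Dox by 0.76 ± 0.14 (adjusted p = 0.026), and it rose in APC-KO against APC-WT without Dox by 0.43 ± 0.14 (0.0342). Both calls rest on the APC-KO arrays without Dox, and both were lost without replicate 1 of that group (0.143 and a difference of 0.25 for genotype). The Dox call was also lost without replicate 2 or 3 of APC-KO with Dox (up to 0.129), and the genotype call without replicate 2 or 3 of APC-WT without Dox.

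Tgfa, a ligand of the epidermal growth factor receptor, fell in APC-KO by 0.86 ± 0.20 without Dox (0.0079) and by 0.81 ± 0.20 with Dox (0.0137), the latter lost without replicate 2 of APC-KO or replicate 3 of APC-WT with Dox (up to 0.056). With its probe sets averaged, both calls held at smaller differences of -0.31 and -0.45. Ereg, a ligand of the same receptor, fell with Dox by 0.50 ± 0.15 (0.032), lost without the same arrays (up to 0.155). Il1a and Il6 lay under the filter. The neutrophil marker sums and the 18S values given with Ptgs2 are from the same arrays as Il1b and Osm, and their part was not tested.

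All 11 genes known to be raised by cyclic AMP downstream of EP2 and EP4 were tested. Between genotypes without Dox 1 rose and 1 fell, where 13.8% of all genes rose and 11.1% fell. With Dox 0 passed, where 11.9% rose and 7.99% fell. For Dox in APC-KO 1 fell, where 0.506% of all genes did. Vegfa, the vascular growth factor, rose by 0.64 ± 0.17 without Dox (adjusted p = 0.0152) and Nr4a2, an orphan nuclear receptor, fell by 0.44 ± 0.12 (0.02). Vegfa was lost without replicate 2 of APC-KO or replicate 1 or 2 of APC-WT without Dox (up to 0.0663), and Nr4a2 without replicate 2 or 3 of APC-KO or replicate 1 of APC-WT without Dox (up to 0.0718, and a difference of -0.28). With its probe sets averaged, Nr4a2 had an adjusted p of 0.333.

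Dusp1, a phosphatase of MAP kinases, read 8.92, 8.84 and 8.68 in APC-KO without Dox and 8.00, 8.10 and 8.02 with Dox. It fell by 0.77 ± 0.16 at an adjusted p of 0.04998, a call lost when any 1 of 10 arrays was left out (up to 0.182). In APC-WT it read 8.62, 9.26 and 8.37 without Dox and 8.03, 8.12 and 8.17 with Dox, a difference of -0.65 ± 0.16 with an adjusted p of 0.123, and these groups did not overlap either. Fosl2, an AP-1 subunit, had differences of -0.03 to 0.13 in the 4 comparisons and no call.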

How the data were processed

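Total RNA of 12 tumour samples was hybridised to Affymetrix mouse arrays, 1 colour, in 4 groups of 3. The deposited log2 values, 1.86 to 14.2, were used as they stand, with no further normalization. The submitters' processing notes name MAS5 without a version, but no step is tied to these values. The nearly equal array medians and the correlations of 0.995 or more within groups leave it unsettled how background and scale were set. Probe sets were named from the platform annotation: 34945 had 1 symbol, 932 several and 9160 none, beside 64 controls; 34741 symbols were updated by Entrez ID. A gene was represented by its brightest probe set, and 11070 of 18193 genes at or above the median level entered limma 3.58.1 (R 4.3.3; group means over all 12 arrays, eBayes with a trend, Benjamini-Hochberg over all tested genes, threshold 0.05, 2-sided), checked on simulated data. Standard errors of probe sets come from the same fit over all probe sets. The number of arrays limits the precision.

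The genes described, the 7 lists and the markers were chosen with earlier results of these data known. Of each list up to 4 genes are named, those that passed in any contrast with the largest difference first and then the brightest, besides the 3 genes most like each described gene. A call is an adjusted p under 0.05. The labels do not say whether replicate numbers pair the samples, which were fitted as unpaired. Same-numbered samples correlated at -0.221 to 0.138 in their deviations from group means, over 0.1 in 2 of 12 pairs. With 3 arrays per group this cannot exclude a pairing. Alternatives were each array left out, another filter, all probe sets of a gene averaged, quantile normalization, array weights, no trend, a fit on the compared groups and a replicate block.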

Additional observations from a re-analysis of the deposited data

How the results depend on the processing

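Ptgs2, Ptges, Ptgis, Tbxas1 and Ptger4 were compared with 485 values under other settings. Of these, 482 stayed within 1 SD of the reported difference, and the 3 others were Ptgs2 with its probe sets averaged (-1.17 for Dox in APC-KO, 1.41 for genotype without Dox, -1.40 for the interaction). Many of them could not move: the filters, no trend, the compared groups alone and the replicate block leave a difference of group means unchanged. So does leaving out an array of a group outside the comparison, so the count does not measure robustness. Of the 52 tested pathway genes, Dox in APC-WT gave 4 calls with array weights and 0 to 4 with 1 array left out (4 without replicate 3 of APC-WT without Dox), in place of 0. Over all tested genes, Dox in APC-WT gave 653 calls with array weights and 418 without that array, in place of 3. Dox in APC-KO gave 1 in place of 2 with the 75th percentile filter, array weights, no trend, averaged probe sets or the replicate block, and 0 to 3 with 1 array left out. Over all tested genes these settings gave, in that order, 42, 54, 29, 35 and 43 calls in place of 60. With 1 array left out, 1 to 92 of all tested genes were called. Genotype without Dox gave 6 in place of 16 with the 75th percentile filter, which kept 21 genes, 9 with the compared groups alone, and 11 to 16 with 1 array left out. Over all tested genes these counts were 2089, 1898 and 2150 to 2739, in place of 2753. Genotype with Dox gave 2 in place of 10 with that filter, 18 with array weights, and 4 to 11 with 1 array left out (4 without replicate 2 of APC-KO or replicate 3 of APC-WT with Dox). Over all tested genes the counts were 1709, 3510 and 1291 to 2354, in place of 2205. The interaction gave 0 to 1, the call being made without replicate 3 of APC-WT without Dox. Over all tested genes, the interaction gave 119 calls without that array and 13 with array weights, in place of 0. Of 28 calls, 9 held without each array and 19 were lost without some array; of the 27 with a named gene, 18 were lost under at least 1 alternative and 0 reversed. Apart from the smaller number of genes under the 75th percentile filter, the cause was not tested. The samples were fitted as unpaired. Under the replicate block 9 of the 10 calls for genotype with Dox remained, with Alox5 lost and Pla2g6 gained, and 15 of the 16 without Dox, with Pla2g12a lost. No background was measured, so values near 5.55 are of unknown precision.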
